A study of Mus musculus with 12 samples.

Results

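Nuclear genes of oxidative phosphorylation were followed in mouse oocytes that lacked the RNA-binding protein gene Lsm14b and in control oocytes. The genes were taken by symbol: every symbol starting with Nduf (complex I), Sdha to Sdhd (complex II), every symbol starting with Uqcr plus Cyc1 (complex III), symbols starting with Cox4 to Cox8 (complex IV) and every symbol starting with Atp5 (ATP synthase). The 8 symbols ending in -ps, which mark pseudogenes, were left out. The rule found 90 of the 22801 genes in the table for the metaphase II stage (MII, the mature egg). They were 7 core subunits, 32 accessory subunits and 7 assembly factors of complex I, 4 genes of complex II, 9 of complex III, 15 of complex IV and 16 of ATP synthase. In the table for the germinal vesicle stage (GV, the oocyte arrested before maturation) the rule found 6 of 3475 genes. That table held only genes with an unadjusted p under 0.05 and a change of over 2-fold in the authors' comparison, so a gene missing from it was not selected and its level at GV was not analysed here.

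Conditional knockout oocytes (CKO) carried floxed Lsm14b alleles on both chromosomes together with Gdf9-Cre, a recombinase that is active in oocytes from early follicle stages and not in the somatic cells around them. Control oocytes (WT) carried the same floxed alleles and no Cre. All 12 libraries came from ovaries of C57BL/6 mice at postnatal day 35, and each library was made from a tube of 15 oocytes, so a value is an average over pooled cells. Each genotype had 3 libraries at MII and 3 at GV, labelled with replicate numbers 2, 3 and 4 (CKO at MII), 1, 2 and 3 (WT at MII) and 1, 2 and 4 (both genotypes at GV). Whether tubes came from different animals is not given in the sources used here, so a p-value measures the spread between tubes.

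Complexes I and II pass electrons from NADH and succinate to ubiquinone, complex III passes them on to cytochrome c and complex IV to oxygen. Complexes I, III and IV pump protons as they do so, and ATP synthase uses the returning protons to make ATP. Most subunits are encoded in the nucleus, translated in the cytosol and imported, while some subunits of complexes I, III, IV and ATP synthase are encoded by mitochondrial DNA. Oocytes depend on mitochondrial ATP for the spindle and for maturation, and the fully grown oocyte makes little new RNA, so the transcripts present at MII are largely those stored during growth.

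The promoters of these genes are known for binding the factors NRF1, GABP (an ETS factor) and YY1, and RefSeq promoter sequences (build GRCm38.p6, 250 bases before to 50 after the gene start) were matched for 71 members. The letters GCATGCG, the core of the NRF1 site, stood on either strand in 12 of the 71 (16.9%), against 5.77% of 12746 promoters in all. The ETS motif CCGGAAG stood in 17 (23.9%), against 15.4%, and the YY1 motif AAGATGGC in 10 (14.1%), against 4.12%. The ETS and YY1 motifs share the letters AAG and can overlap. At least 1 of these 3 motifs stood in 33 of the 71 (46.5%), against 23.1%. The promoters of Atp5pb, the member that passed the test at MII, and of Uqcrc1, the member with the smallest p at GV, are shown 5′ to 3′ on the strand of the gene. Capitals mark the YY1 motif on the reverse strand in Atp5pb (chr3:105959214-105959513, minus strand) and 2 overlapping NRF1 cores, on opposite strands, in Uqcrc1 (chr9:108936398-108936697, plus strand).
Atp5pb: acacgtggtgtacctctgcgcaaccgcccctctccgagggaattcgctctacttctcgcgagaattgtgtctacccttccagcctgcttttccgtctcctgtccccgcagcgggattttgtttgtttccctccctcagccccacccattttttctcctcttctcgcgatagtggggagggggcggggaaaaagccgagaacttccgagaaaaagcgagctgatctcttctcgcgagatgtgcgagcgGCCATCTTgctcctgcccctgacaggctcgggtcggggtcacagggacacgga
Uqcrc1: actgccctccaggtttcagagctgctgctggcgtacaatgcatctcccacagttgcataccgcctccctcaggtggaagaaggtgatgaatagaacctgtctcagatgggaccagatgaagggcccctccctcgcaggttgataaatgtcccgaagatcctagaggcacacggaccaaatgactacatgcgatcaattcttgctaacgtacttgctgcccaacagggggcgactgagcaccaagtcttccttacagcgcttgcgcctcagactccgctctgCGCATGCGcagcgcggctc

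Stored oocyte mRNAs are polyadenylated and translated during maturation through cytoplasmic polyadenylation elements near their 3′ ends. Transcripts of 86 members were matched in the GENCODE M21 annotation. The element, searched as TTTTAT and as TTTTAAT, stood in the last 100 bases (or in the whole 3′ untranslated region where that is shorter) of 8 of the 86 members (9.30%), against 18.7% of 14069 genes. The Pumilio motif TGTANATA stood there in 2 members (2.33%), against 4.77%, and the polyadenylation signal AATAAA in 59 (68.6%), against 66.0%. The sites of 3 members described below are shown, 30 bases each with the element in capitals.
Ndufaf3: tttcccaaacTTTTATtgaaaaattcaagg
Ndufs4: aatggagatcTTTTATtcttaggaaataag
Cox5a: cctggaaatgTTTTATttgaacaaattttc

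The MII libraries held 40530314, 23077585 and 38874759 reads in CKO replicates 2, 3 and 4, against 93117615, 88494525 and 124872889 reads in WT replicates 1, 2 and 3, so every CKO library was the shallower. Values are normalized counts, the authors' scaled read counts. Lsm14b itself stood at 822 to 982 normalized counts in CKO eggs, against 10643 to 11641 in WT eggs, and at 1273 to 1601 in CKO oocytes at GV, against 18816 to 30132 in WT oocytes. All 10 oocyte markers were present at MII, with a sum of 647938 to 749543 normalized counts in CKO libraries, against 576404 to 698962 in WT libraries. Within that sum Bmp15 was lower in every CKO library, at 47016, 62545 and 78335, against 113206, 122875 and 159949 in WT libraries. Zp2, Zp3 and Nlrp5 were higher in every CKO library, and the others overlapped. WT replicate 3 stood apart: its rank correlation with the others was 0.847 to 0.877 across genes, while the other 5 reached 0.899 to 0.940 among themselves. It also had the highest sum over the 9 listed cumulus and granulosa markers (of 14), 3378 normalized counts, against 1061 and 1107 in the other WT libraries and 739 to 1500 in CKO libraries. Most of the sum in WT replicate 3 was Cyp19a1, Amh and Has2 were at 0 in all CKO libraries, and Fst was at 0 in all WT libraries. Other markers of that list were higher in every CKO library, among them Fshr at 157, 96.2 and 90.9 in CKO libraries, against 34.2, 4.79 and 0 in WT libraries, and likewise Inhba and Ptgs2. The 3 listed blood and immune markers (of 7) summed to 194 to 215 in CKO libraries, against 1118 to 1925 in WT libraries, where nearly all of it was C1qb, and Ptprc was at 0 in all CKO libraries. The 8 listed theca, stroma and endothelium markers (of 12) summed to 3957 to 4695 in CKO libraries, against 3760 to 4838 in WT libraries, with Cyp17a1 and Cyp11a1 at 0 in WT. Most of that sum was Pecam1, which overlapped, at 4198, 3998 and 3771 in CKO libraries and 3422, 4060 and 2841 in WT libraries. The endothelial markers Tie1 (297, 159.5 and 158 in CKO, against 703, 446 and 695 in WT) and Kdr were lower in every CKO library. The 1 listed sperm marker (of 5) had 134 to 542 in CKO libraries, against 0 to 362 in WT libraries. The part of other cells in the results below was not tested. In such pooled samples fewer cells of a type and less RNA per cell cannot be told apart. Counts of called members and log2 differences at MII are therefore given with and without WT replicate 3.

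At MII 89 of the 90 members reached a mean of 1 normalized count and were tested, and 71 had reads in all 6 libraries. Of the 89, 1 (Atp5pb) rose in CKO eggs and none fell (limma, Benjamini-Hochberg adjusted p under 0.05), where 0.52% of the 20388 tested genes were called higher and 0.991% lower. At an unadjusted p under 0.05, 6 members were higher and 5 lower, where 6.7% of all genes were higher and 9.28% lower. The count test on recovered reads (limma-voom) called none in either direction, and the authors' deposited table gave 82 members an adjusted p, with 4 of them higher and 3 lower, where 4.6% and 6.94% of 16042 genes were. Array weights in limma gave WT replicate 3 a weight of 0.198, WT replicate 1 0.984 and WT replicate 2 4.37. The WT level in that fit thus rested mostly on WT replicate 2. It called 18 members higher and 3 lower, where 6.36% and 9.28% of all genes were. The CKO libraries lay wholly above the WT libraries in 11 members and wholly below in 10, where 10.4% and 12.0% of all genes did. With array weights the members' share was thus 20.2% higher and 3.37% lower, and in the other comparisons it was near the background. The median log2 difference of CKO minus WT was 0.08 over the members and -0.11 over all tested genes.

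Without WT replicate 3, 88 members were tested, 3 rose (Cox7b, Atp5pb and Ndufb3) and 1 fell (Ndufaf3) in CKO eggs, where 2.16% of 20240 genes were called higher and 2.72% lower. At an unadjusted p under 0.05, 19 members were higher and 3 lower, where 8.84% of all genes were higher and 12.9% lower. All 3 CKO libraries lay above both remaining WT libraries in 30 members and below them in 10, where 15.8% and 21.9% of all genes did. The median log2 difference was 0.43 over the members and -0.17 over all genes, and 61 of the 88 differences were positive. In 19 of those 30 members above, WT replicate 3 lay within or above the CKO range. The CKO libraries of the 10 members below were below WT replicate 3 as well.

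**Figure D1:**
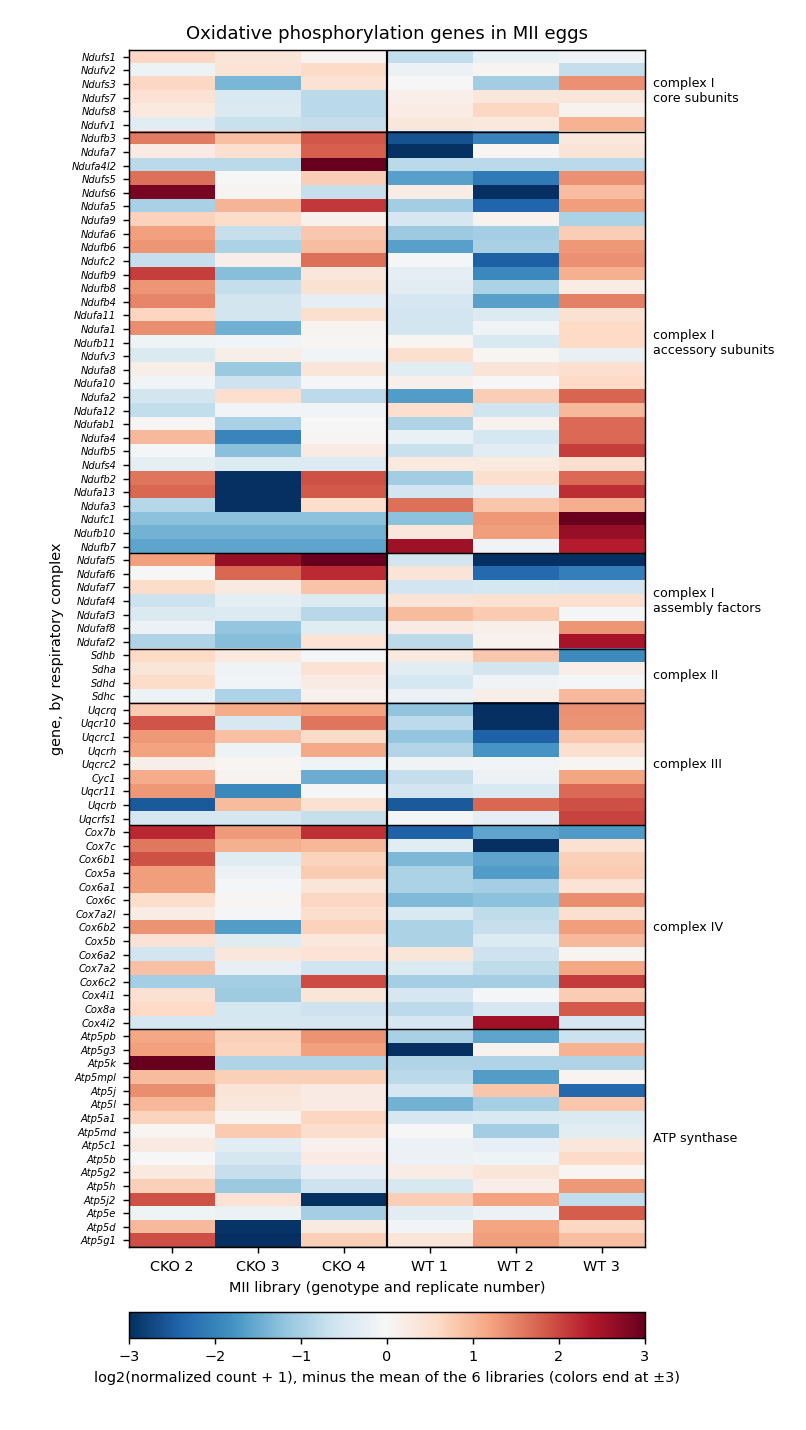
Level of 88 of the 89 tested genes (rows, by complex) in the 6 MII libraries (columns, CKO replicates left, WT replicates right), as log2(normalized count + 1) minus the mean of the gene's 6 libraries, with colors ending at ±3. WT replicate 3 is red in most rows of complexes I, III and IV, where WT replicates 1 and 2 are mostly blue, and CKO replicate 3 is often paler or bluer than CKO replicates 2 and 4.

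The spread within a genotype followed a shared pattern. WT replicate 3 was above both other WT libraries in 67 of 90 members (74.4%), where this held for 36.8% of all tested genes. CKO replicate 3, the shallowest library, was below both other CKO libraries in 48 members (53.3%), where this held for 24.6% of all tested genes. The median log2(normalized count + 1) of the members was 7.84, 6.78 and 7.71 in CKO replicates 2, 3 and 4, against 6.29, 6.43 and 7.77 in WT replicates 1, 2 and 3. Over all tested genes the same median lay between 6.56 and 6.82 in every library. CKO replicate 3 thus lay between WT replicate 2 and the other CKO libraries, and WT replicate 3 within the CKO range.

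Member transcripts are short. Their median length was 870 bases in GENCODE M21, against 2939 bases over all tested genes with a length. For each gene 1 transcript was taken, by annotated principal form, then by coding length, then by total length. WT replicate 3 minus the mean of the other WT libraries, on the log2 scale, had a median of 2.05 over the 31 members under 700 bases, against 1.13 over all 306 such genes. It was 0.80 over the 35 members of 700 to 1500 bases, against 0.37 over all 2015 such genes, and 0.49 over the 20 longer members, against -0.19 over 12113 genes. CKO minus WT replicates 1 and 2 was likewise 0.99, 0.20 and 0.07 over the short, middle and long members, against 0.00, -0.16 and -0.11 over all genes of those classes. Both differences were thus larger in the shorter members, and in each class the member median exceeded that of all genes, members included. Median lengths of members and all genes were 572 and 550 bases in the short class. They were 983 and 1155 bases in the middle class and 1906 and 3341 bases in the long class. The middle and long classes therefore do not compare genes of like length. The part of transcript length, RNA quality or library depth in these values was not tested. With reads thinned to the shallowest library the count remained 1 member called higher and 0 lower.

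**Figure D2:**
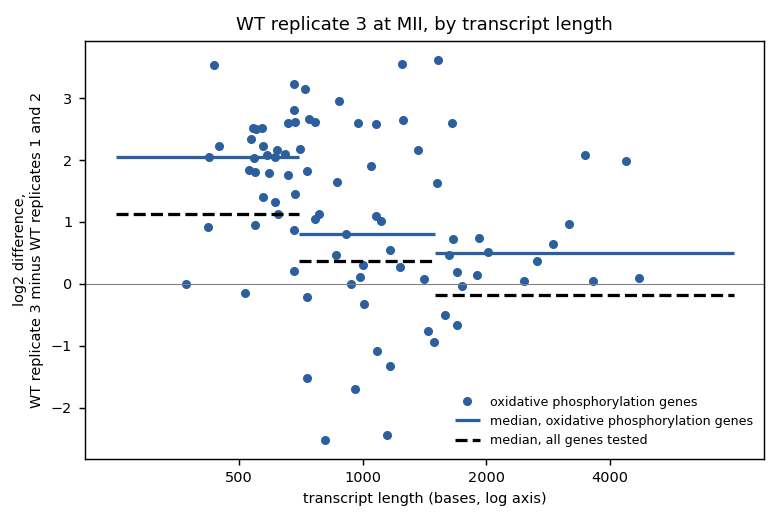
Transcript length in bases (log axis) against the log2 difference of WT replicate 3 minus the mean of WT replicates 1 and 2 at MII, with a point for each of 86 members, blue lines for member medians and dashed black lines for the medians of all tested genes in the same length class. Most members under 700 bases lie above 1, with a median of 2.05.

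ATP synthase held the member that passed the test with all libraries. Atp5pb, which encodes subunit b of the peripheral stalk that holds the catalytic head still, had 1497, 1099 and 1712 normalized counts in CKO replicates 2, 3 and 4, against 346, 223 and 432 in WT replicates 1, 2 and 3. Every CKO library was more than 2-fold above every WT library. The means were 1436 ± 311 in CKO and 334 ± 105 in WT (SD, n = 3 each), a log2 difference of 2.13 (SE 0.41, limma adjusted p = 0.0384). Without WT replicate 3 it was 2.34 (adjusted p = 0.0157), while leaving out any one of the other 5 libraries gave adjusted p-values of 0.108 to 0.182, and limma-voom gave 0.0595. The pseudogene symbol Atp5pb-ps had 16.5, 38.0 and 13.8 in CKO libraries, against 4.13, 0 and 2.05 in WT libraries, far below the gene itself.

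Atp5a1, the alpha subunit of the catalytic head, had 4692, 3200.3 and 4600.5 normalized counts in CKO libraries, against 2074, 2142 and 2179 in WT libraries. The WT libraries lay close together and all CKO libraries above them, but the log2 difference of 0.94 (SE 0.29) did not pass the test with limma (adjusted p = 0.142), while the authors' deposited table gave 0.00817. The log2 difference without WT replicate 3 was 0.96 (adjusted p = 0.0695). Its partner Atp5b, the catalytic beta subunit and the most abundant member per length, had 10776, 7613 and 12756 in CKO libraries, against 9531, 9832 and 16104 in WT libraries, and the genotypes overlapped. The gamma subunit of the rotor, Atp5c1, also overlapped, at 975, 656 and 891 in CKO and 719.6, 689.8 and 1029 in WT libraries. Atp5mpl, a small membrane subunit, had 138, 116 and 117 in CKO libraries and 40.1, 21.5 and 74.9 in WT libraries, a log2 difference of 1.59 (adjusted p = 0.381), which became 2.03 once WT replicate 3 was dropped (adjusted p = 0.145). Here too all CKO libraries lay above all WT libraries. Atp5l, the membrane subunit g, had 171, 109 and 101 in CKO libraries and 31.2, 42.5 and 153 in WT libraries, and WT replicate 3 lay within the CKO range. The subunit c ring has 3 genes for 1 mature protein. Atp5g2 was the highest of them at 933, 473 and 645 in CKO and 883, 973 and 797 in WT libraries. Atp5g1 had 136, 0 and 57.9 in CKO and 44.8, 85.0 and 66.1 in WT libraries, and Atp5g3 had 45.4, 30.4 and 45.5 in CKO and 0, 20.3 and 40.0 in WT libraries. None of the 3 separated the genotypes. Over the 16 ATP synthase members the median log2 difference was 0.48 and 9 were positive, while without WT replicate 3 it was 0.37 with 10 positive, and without CKO replicate 2 the median turned to -0.064. Atp5k, the membrane subunit e, had no reads in WT libraries and 30 reads in CKO replicate 2 alone, which made its CKO mean at least 8.10-fold higher than the WT floor of 3 reads in each library.

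**Figure D3:**
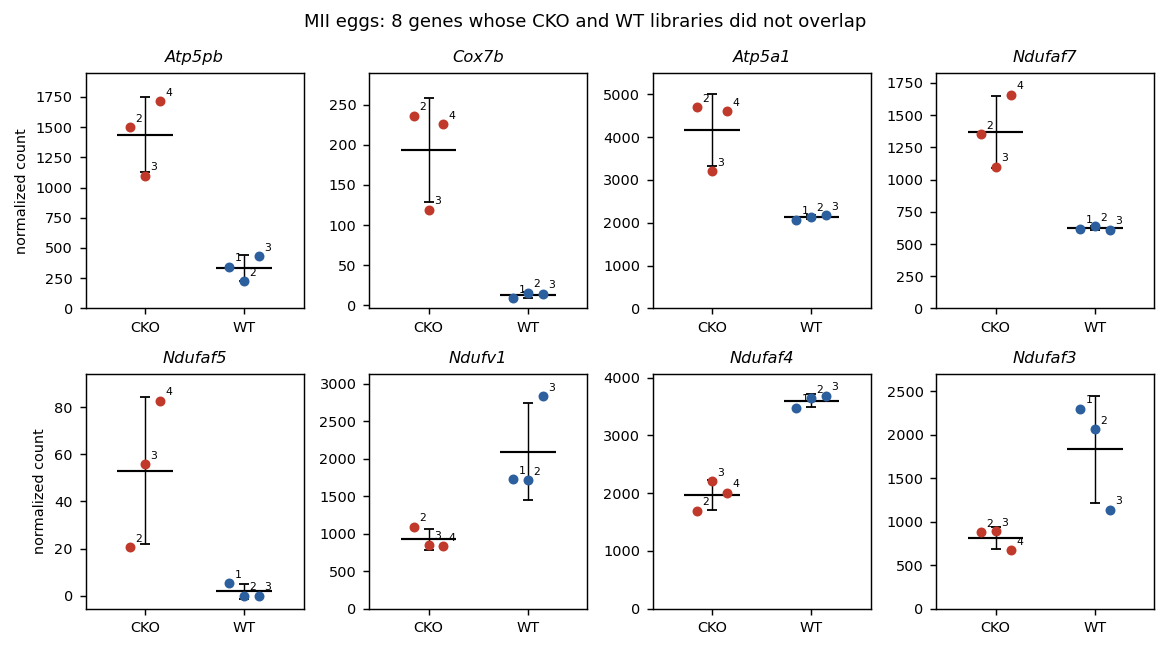
Normalized counts at MII of 8 genes whose CKO and WT libraries did not overlap, with a point per library (replicate number beside it, CKO left of WT), the mean as a line and the SD as bars. Atp5pb, Cox7b, Atp5a1, Ndufaf7 and Ndufaf5 were higher in every CKO library, and Ndufv1, Ndufaf4 and Ndufaf3 lower, while only Atp5pb passed the test with all 6 libraries.

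In complex IV, Cox7b had the largest difference. Cox7b encodes a small membrane subunit of cytochrome c oxidase and lies on the X chromosome. It had 237, 119 and 226 normalized counts in CKO libraries, from 172, 47 and 164 reads, against 8.25, 15.6 and 14.4 in WT libraries, from 14, 26 and 28 reads. The lowest CKO library was more than 7 times the highest WT library, and the WT reads were few in spite of the deeper libraries. The log2 difference was 3.81 (SE 0.92) with a limma adjusted p of 0.0769, and it passed without WT replicate 3 at 3.91 (adjusted p = 0.0368). The authors' deposited table gave 3.93 with an adjusted p of 8.52e-08.

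Several other subunits of complex IV were above WT replicates 1 and 2 in every CKO library and not above WT replicate 3. Cox5a, a subunit of the matrix face, had 1136, 423 and 825 normalized counts in CKO libraries, against 248, 148 and 817 in WT libraries. With all libraries it differed by 1.24 on the log2 scale (adjusted p = 0.385), and by 1.94 (adjusted p = 0.0700) once WT replicate 3 was left out. Cox6a1 had 1035, 413 and 558 in CKO libraries, against 224, 212 and 579 in WT libraries. Cox6b1, on the intermembrane side, had 742, 152 and 314 in CKO libraries, against 77.2, 65.2 and 321 in WT libraries. In each of these 3 genes WT replicate 3 lay within the CKO range and the other WT libraries below it. Cox6c went the same way with WT replicate 3 above all CKO libraries, at 289, 205 and 311 in CKO and 80.2, 85.0 and 528 in WT libraries. Of the 15 members 11 had a positive difference with all libraries, at a median of 0.25, and 14 without WT replicate 3, at a median of 0.95. In 8 of the 15 all CKO libraries were then above both WT libraries, where 15.8% of all genes were, and 1 was called higher, where 2.16% of all genes were.

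Several complex IV subunits have tissue forms. Cox6b2, the form known from testis, had 833, 101 and 526 normalized counts in CKO eggs, against 168, 199.8 and 779 in WT eggs. Both the CKO and the WT values spread widely, and the log2 difference of 0.25 (adjusted p = 0.893) was 0.95 without WT replicate 3 (adjusted p = 0.533) and turned to -0.36 without CKO replicate 2. Cox6a2, the heart and muscle form, had 118, 223 and 237 in CKO and 229, 115 and 187 in WT libraries, and Cox4i1, the common form, had 227, 78.5 and 213 in CKO and 117, 159 and 281 in WT libraries. Cox4i2, the lung form, had no reads in CKO libraries and 12 reads in WT replicate 2 alone, a WT mean below the CKO floor of 3 reads in each library, so no fold is given. Cox7a2 had 339, 157 and 121 in CKO and 137, 108 and 415 in WT libraries, and Cox8a had 763, 352 and 329 in CKO and 292, 360.1 and 1832 in WT libraries. In neither did the genotypes separate, and WT replicate 3 was the highest library of both. Cox7a2l, described as a factor for supercomplexes of complexes III and IV, had 307, 253 and 377 in CKO and 190.4, 155 and 367 in WT libraries. Its role in the strain used here was not examined. Cox7a1, Cox7b2, Cox8b and Cox8c were not listed in the MII table.

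Complex III showed the same dependence on WT replicate 3. Uqcrc1, a large core subunit that faces the matrix, had 281, 213 and 169 normalized counts in CKO eggs, against 49.5, 20.3 and 197 in WT eggs. The log2 difference of 1.86 (SE 0.90, adjusted p = 0.344) was 2.73 without WT replicate 3 (SE 0.67, adjusted p = 0.0619). Uqcrh, the hinge protein beside cytochrome c1, had 438, 169.6 and 415 in CKO and 103, 54.4 and 264 in WT libraries. Uqcrq, a small subunit near the quinone site, had 77.1, 96.2 and 103 in CKO and 18.9, 3.59 and 116 in WT libraries. WT replicate 3 lay inside the CKO range of Uqcrc1 and Uqcrh and above that of Uqcrq. Uqcrfs1, the Rieske iron-sulfur protein, was below WT in every CKO library at 124, 122 and 109, against 172, 145 and 714 in WT libraries, and the size of that gap came mainly from WT replicate 3. Its log2 difference of -1.14 (adjusted p = 0.474) was -0.42 without that library. Uqcrc2, the other core protein, was nearly level at 5699, 5223 and 4618 in CKO and 4702, 4752 and 5208 in WT libraries. Cyc1, cytochrome c1, had 450.2, 225 and 73.0 in CKO and 126, 183 and 473 in WT libraries. Of the 9 members 5 were positive with all libraries and 8 without WT replicate 3, and none was called.

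The 4 genes of complex II, the succinate dehydrogenase of the tricarboxylic acid cycle, did not pass the test. Sdha, the flavoprotein that oxidizes succinate, had 8927, 6446 and 9384 normalized counts in CKO eggs, against 5433, 4690.3 and 7918 in WT eggs, and its log2 difference was 0.47 (SE 0.31, adjusted p = 0.485). Its CKO libraries exceeded WT replicates 1 and 2, and WT replicate 3 lay within the CKO range, so that the difference without that library was 0.69 (adjusted p = 0.141). Sdhb, the iron-sulfur subunit, had 533, 435 and 339 in CKO and 430.2, 619 and 93.8 in WT libraries. Here WT replicate 3 was the lowest library, and the log2 difference of 0.55 turned to -0.27 without it. Of the membrane anchors, Sdhc had 1786, 1046 and 2182 in CKO and 1782, 2241 and 3909 in WT libraries, and Sdhd had 2093, 1359.6 and 1699.7 in CKO and 989.5, 1326 and 1377 in WT libraries. The log2 difference was -0.65 for Sdhc (adjusted p = 0.470) and 0.47 for Sdhd (adjusted p = 0.526), and without WT replicate 3 it was -0.32 for Sdhc and 0.56 for Sdhd (adjusted p = 0.610 and 0.312).

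Complex I held members of both signs. Its core subunits had a median log2 difference of -0.22 and its accessory subunits of -0.13, and no member of either passed the test with all libraries. The medians turned to 0.036 and 0.26 without WT replicate 3, and without CKO replicate 3 the accessory median was 0.75. Ndufv1, the subunit that binds NADH and flavin, had 1090.4, 856 and 831 normalized counts in CKO eggs, against 1727, 1715 and 2835 in WT eggs. All CKO libraries were below all WT libraries, with a log2 difference of -1.15 (SE 0.35, adjusted p = 0.137), while the adjusted p in the authors' deposited table was 0.0121. Leaving out WT replicate 3 gave a log2 difference of -0.91 (adjusted p = 0.0879). Ndufs1, the largest iron-sulfur subunit of the same arm, went the other way at 533, 441 and 361 in CKO and 206, 295 and 317 in WT libraries (log2 difference 0.71, adjusted p = 0.489), a difference of 0.83 once WT replicate 3 was dropped (adjusted p = 0.269). Ndufs7 and Ndufs8, which carry iron-sulfur clusters towards ubiquinone, averaged 1726 ± 817 and 1768 ± 714 in CKO eggs, against 2384 ± 175 and 2618 ± 504 in WT eggs (SD, n = 3 each), and overlapped between genotypes.

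Among the accessory subunits, none was called with all libraries, and Ndufb3 and Ndufs4 are described here as a choice made after their values were seen. Ndufb3, of the membrane arm, had 229, 144 and 282 normalized counts in CKO eggs, against 11.8, 18.5 and 95.9 in WT eggs. All CKO libraries lay above all WT libraries, with a log2 difference of 2.87 (SE 0.96, adjusted p = 0.179) that passed the test without WT replicate 3 at 3.74 (SE 0.71, adjusted p = 0.0327). Ndufs4, a matrix arm subunit whose loss in mice models Leigh syndrome, had 324, 296 and 299 in CKO and 486, 486 and 558 in WT libraries. Its CKO libraries lay close together at 60.0% of the WT mean, but the difference of -0.73 did not pass (adjusted p = 0.415), nor did that of -0.67 without WT replicate 3 (adjusted p = 0.311). The 4 genes Ndufb7, Ndufb10, Ndufc1 and Ndufb4c had no reads in any CKO library. Their WT reads were few, at 28, 3 and 28 for Ndufb7, 4, 9 and 30 for Ndufb10, 0, 8 and 53 for Ndufc1, and 5, 0 and 4 for Ndufb4c. With a floor of 3 reads in each CKO library, the CKO mean was at least 2.06-fold lower for Ndufb7, 1.46-fold lower for Ndufb10 and 2.02-fold lower for Ndufc1, while the WT mean of Ndufb4c was below the floor. Without WT replicate 3 the bound was 1.73-fold for Ndufb7, and the WT means of Ndufb10 and Ndufc1, 3.87 and 2.39 normalized counts, were below the floor of 5.29, so their bounds rest on that library. These floors cover counting error only. Ndufa4, counted here by its symbol though it is also described as a complex IV subunit, had 613, 78.5 and 321 in CKO and 272, 218 and 1010.2 in WT libraries. Its relative Ndufa4l2 had 21 reads in CKO replicate 4 and none elsewhere.

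The assembly factors, which build complex I and are not part of it, had values on both sides of WT. Ndufaf3 and Ndufaf4 are partners that assemble the quinone-binding part of the enzyme. Ndufaf4 had 1698, 2205 and 2008 normalized counts in CKO libraries, against 3475, 3646 and 3685 in WT libraries. The log2 difference was -0.88 (SE 0.28, adjusted p = 0.156), which became -0.86 once WT replicate 3 was dropped (adjusted p = 0.0717). Ndufaf3 had 881, 891 and 672 in CKO libraries, against 2299, 2066 and 1139 in WT libraries. Its difference of -1.12 (SE 0.38, adjusted p = 0.182) was -1.43 without WT replicate 3, the lowest WT library, and then passed the test (adjusted p = 0.0289). In both genes all CKO libraries lay below all WT libraries. Ndufaf8 also lay below, at 81.2, 40.5 and 71.6 in CKO and 109, 102 and 232 in WT libraries (log2 difference -1.14, adjusted p = 0.508), a difference of -0.76 once WT replicate 3 was dropped (adjusted p = 0.547).

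Ndufaf7, a methyltransferase of the complex I assembly pathway, was higher in every CKO library, at 1352, 1099 and 1658 normalized counts in CKO eggs, against 618, 638 and 612 in WT eggs. The WT libraries were tightly grouped. The log2 difference of 1.12 (SE 0.34) had a limma adjusted p of 0.145, and the authors' deposited table gave 0.00291. It was 1.10 without WT replicate 3 (adjusted p = 0.0694). Ndufaf5, a hydroxylase of Ndufs7 and a known partner of Ndufaf8, had 20.7, 55.7 and 82.6 in CKO libraries, from 15, 22 and 60 reads, against 5.30, 0 and 0 in WT libraries, from 9, 0 and 0 reads. WT replicates 2 and 3 held none, though both were deeper than every CKO library. The difference did not pass the test (adjusted p = 0.132, 0.120 without WT replicate 3, range 0.12 to 0.327 over the fits that left out 1 library). Over the 7 assembly factors 3 differences were positive and 4 negative, at a median of -0.88 with all libraries and -0.25 without WT replicate 3.

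**Figure D4:**
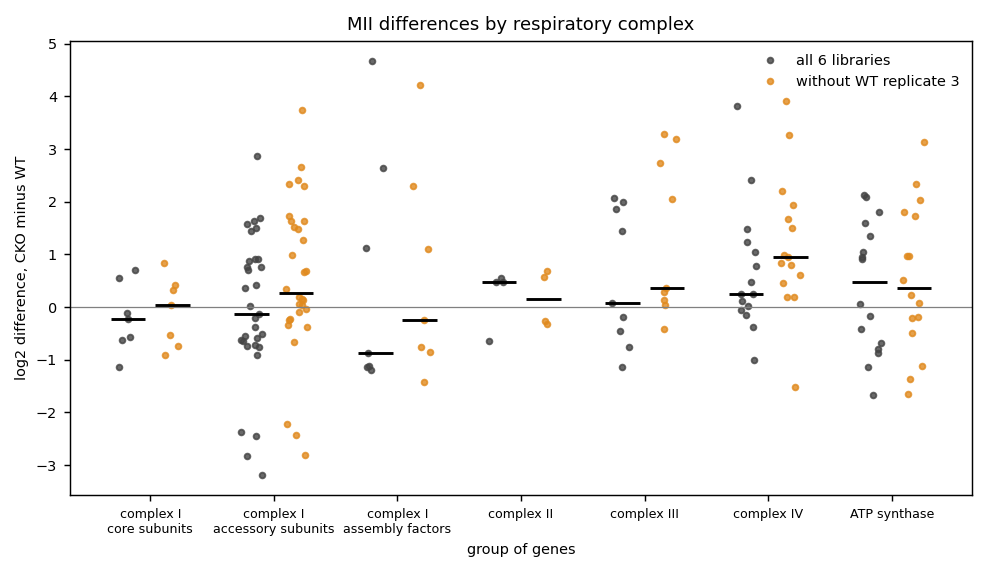
Log2 difference at MII, CKO minus WT, for each member by group, with all 6 libraries (grey) and without WT replicate 3 (orange), and the median of each as a black line. The complex IV median is 0.25 with all libraries and 0.95 without WT replicate 3, and the complex I assembly factors have a median of -0.88 with all libraries and -0.25 without WT replicate 3.

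Levels were compared between genes per kilobase of the transcript chosen above. That choice gave Atp5g1, Ndufb2 and Ndufab1 lengths of 4715, 4371 and 3479 bases. Their levels per kilobase would be understated if shorter forms were expressed, which was not tested. At MII Atp5b led with 5419 ± 1354 normalized counts per kilobase in CKO eggs and 6170.4 ± 1937 in WT eggs (SD, n = 3 each). Sdha was the second in CKO eggs with 2846 ± 545 and stood lower in the order in WT eggs with 2074 ± 583, below Ndufs8, Uqcrc2 and Ndufs7. Uqcrc2 had 2732 ± 286 in CKO and 2578 ± 147 in WT eggs. Ndufs8 had 1759 ± 710.1 in CKO and 2605 ± 501 in WT eggs, close to Ndufs7 with 1756 ± 831 in CKO and 2425 ± 178 in WT eggs. The highest complex IV member differed by genotype: Cox5a with 1232 ± 554 in CKO eggs, and Cox8a with 1505 ± 1582 in WT eggs, a mean that rests on WT replicate 3. The median over the members of a complex was highest for complex II, at 961 normalized counts per kilobase in CKO and 917 in WT eggs. It was 338 in CKO and 287 in WT eggs for complex IV, and 180 in CKO and 164 in WT eggs for complex I. Complex III had 134 in CKO and 146 in WT eggs, and ATP synthase 99.7 in CKO and 107 in WT eggs. By these medians of group means the order of the complexes was the same in both genotypes, and the order within single libraries was not compared. Atp5pb, Atp5md, Cox6c2 and Ndufb4c had no matched transcript and were left out. ATP synthase thus rested on 14 of its 16 genes, and its place below complex III is uncertain.

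At GV 6 members were listed, 4 with higher and 2 with lower values in CKO oocytes, where 6.42% and 9.77% of an implied 21462 tested genes were listed. The authors' deposited table put 3 of the higher and both of the lower past 2-fold with an adjusted p under 0.05, where this held for 4.96% and 7.89% of those genes. Every listed gene was selected for differing in these same libraries. A gap between the genotypes, described for single genes here and below, therefore largely follows from that selection. Uqcrc1 had 1564, 1694 and 1953 normalized counts in CKO replicates 1, 2 and 4, against 722, 479 and 655 in WT replicates 1, 2 and 4. Every CKO library was more than 2-fold above every WT library. The authors' deposited table gave a log2 fold change of 1.49 (SE 0.24, adjusted p = 1.92e-08). Cox6b2 had 867, 908 and 1052 in CKO oocytes, against 197, 353 and 388 in WT oocytes. Its log2 fold change in the authors' deposited table was 1.59 (SE 0.34, adjusted p = 2.86e-05). Atp5l had 462, 759 and 740.2 in CKO oocytes, against 276, 385 and 279 in WT oocytes, without overlap (1.06 in the authors' deposited table, adjusted p = 0.0105). Atp5l has 9 annotated copies of at least 95% identity, 5 of them in the MII table, so reads may have been shared among them.

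The 2 called lower at GV were complex I genes, a group that holds 46 of the 90 members at MII. Ndufaf8 had 137, 172 and 197 normalized counts in CKO oocytes, against 329.5, 489.7 and 458 in WT oocytes, and all CKO libraries were below all WT libraries. The authors' deposited table gave -1.33 (SE 0.37, adjusted p = 0.00202). Ndufb7 had 255, 386 and 393 in CKO oocytes, against 382, 1121 and 754 in WT oocytes, where WT replicate 1 lay within the CKO range (-1.12 in the authors' deposited table, adjusted p = 0.0443). Ndufa12, an accessory subunit of the matrix arm, had 489.7, 719 and 386 in CKO oocytes, against 133, 334 and 262 in WT oocytes. Its libraries did not overlap, but its adjusted p of 0.0541 in the authors' deposited table missed the threshold. No member was listed from complex II (4 genes) or from the core subunits of complex I (7 genes). With 6.42% of all genes listed higher and 9.77% lower, groups of that size can be absent, so nothing is read into it. Among the marker lists at GV, 4 endothelial and stromal markers were listed and summed to 127 to 372 in CKO libraries, against 963 to 2032 in WT libraries, with Col1a2 and Kdr at 0 in CKO. The 2 listed blood markers summed to 1026 to 1129 in CKO libraries, against 1825 to 2162 in WT libraries, with C1qb lower in every CKO library and Cd68 higher, at 282, 180.4 and 347 in CKO libraries and 104, 101 and 79.5 in WT libraries. The 1 sperm marker had 58.2 to 99.1 in CKO libraries, against 14.8 to 47.7 in WT libraries, and no cumulus or oocyte marker was listed. Their part in the GV results was not tested.

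**Figure D5:**
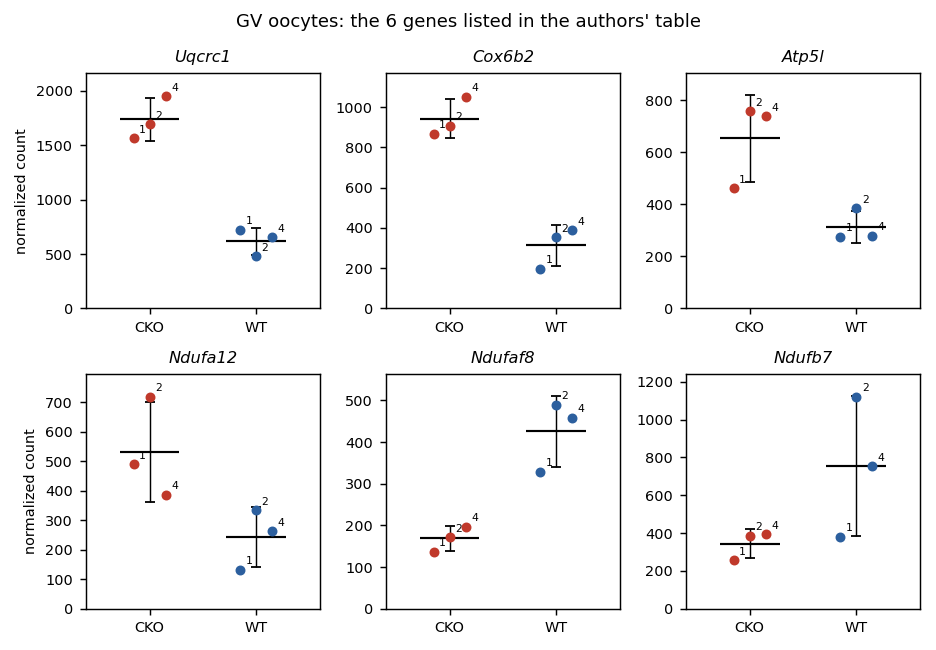
Normalized counts at GV of the 6 listed genes, with a point per library (replicate number beside it, CKO left of WT), the mean as a line and the SD as bars. Uqcrc1, Cox6b2, Atp5l and Ndufa12 were higher in every CKO library and Ndufaf8 lower, while Ndufb7 overlapped in WT replicate 1.

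Of the 6 genes, 5 (83.3%) had the same sign at both stages in the authors' deposited tables, where 87.4% of 3066 genes listed at GV did. Uqcrc1 had 1.49 at GV and 1.31 at MII, Cox6b2 1.59 and 0.35, Atp5l 1.06 and 0.75, and Ndufaf8 -1.33 and -1.19, each pair as log2 fold change at GV and at MII. The sign of Cox6b2 at MII depended on CKO replicate 2, as given above. Ndufb7 had no CKO reads at MII. Ndufa12 was 1.13 at GV and -0.72 at MII, where its libraries overlapped at 20.7, 32.9 and 33.1 in CKO and 50.1, 22.7 and 69.7 in WT eggs. A test of the difference between the stages, from the deposited fold changes and standard errors, passed for none of the 6 (lowest adjusted p = 0.356, Ndufa12, normal approximation, 6 genes). The genes were listed for their fold change at GV, which that selection can enlarge. The standard errors of the log2 differences were 0.76 to 3.04, so large differences could be missed. The test therefore cannot tell whether the stages agree. The tables were normalized separately, so levels were not compared between stages.

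Calls among other mitochondrial genes at MII stand beside the shares of all tested genes, 0.52% higher and 0.991% lower with all libraries. Of 42 tested assembly factors and electron carriers none rose and 1 fell, Cox19, a copper-handling factor for complex IV. Cox19 had no reads in CKO eggs, against 117, 114 and 276 normalized counts in WT eggs (limma adjusted p = 0.0266, and 0.0257 without WT replicate 3). It was lower at GV too, at 84.5, 221 and 315 in CKO oocytes, against 724, 705 and 354 in WT oocytes (adjusted p = 0.0229 in the authors' deposited table). Of 13 cristae genes 1 rose, Chchd2, an intermembrane space protein that is known in human cells to raise transcription of the COX4I2 gene. Chchd2 had 2285, 1223 and 2401 in CKO eggs, against 37.1, 80.8 and 239 in WT eggs, which differed by 4.38 on the log2 scale (SE 0.67, adjusted p = 0.0197), and by 5.08 without WT replicate 3 (adjusted p = 0.00552). Cox4i2 itself stood at 0 reads in those CKO eggs, and also in WT replicates 1 and 3, with 12 reads in WT replicate 2. Its WT mean was below the CKO floor, so its CKO level cannot be compared with WT. A link between Chchd2 and Cox4i2 was not tested. None was called among 14 tricarboxylic acid cycle genes, 8 carriers and 14 regulators of mitochondrial gene expression. Without WT replicate 3 the tricarboxylic acid cycle gene Fh1, the ADP/ATP carrier Slc25a5 and the regulators Gabpb1 and Lrpprc were called higher, and the regulators Tfb1m and Polrmt lower, where 2.16% of all genes were called higher and 2.72% lower. Slc25a5 had 9340.2, 5588 and 8459 in CKO eggs, against 2844, 2664 and 4592 in WT eggs. Polrmt, the mitochondrial RNA polymerase, had 3199.7, 2256 and 1043 in CKO eggs, against 9009, 7141 and 3802 in WT eggs.

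Of the 47 assembly factors and electron carriers of the list, 9 were in the GV table, and the authors' deposited table put 2 higher and 7 lower past 2-fold with an adjusted p under 0.05, where this held for 4.96% and 7.89% of all genes. Those higher were Bcs1l, which inserts the Rieske protein into complex III, at 1.10 (adjusted p = 0.000155), and the complex I factor Tmem126b at 1.22. Those lower were Cmc1, Coa3, Coa4, Coa7, Cox17, Cox19 and Sdhaf3, at -2.11 to -1.15, and all but Sdhaf3, a complex II factor, serve complex IV. Many other genes of the list also serve complex IV, so these calls are not read as a result about that complex. Of the carriers Slc25a3, which imports phosphate, was higher (1.14, adjusted p = 2.60e-07) and the outer membrane pore Vdac2 lower (-1.52, adjusted p = 1.87e-15). The tricarboxylic acid cycle gene Idh3g was higher (1.03). Of the regulators Gabpa, the ETS factor named above, was higher at 146, 236 and 522 in CKO oocytes, against 125, 55.9 and 68.3 in WT oocytes (adjusted p = 0.0185). Polrmt was lower (-1.49, adjusted p = 7.83e-27), and Ppargc1a, a coactivator of mitochondrial genes, was at 0 in all CKO oocytes, against 261, 265 and 209 in WT oocytes.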

How the data were processed

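The authors deposited 1 table per stage with, per gene and library, log10(normalized count + 1), and, per the file headers, a mean signal, a log2 fold change, its SE and score, and p-values before and after adjustment. No source used here names the aligner, counter, strand setting or genome build, so genes with near-identical copies (10 of 86 members at 95% identity over 50% of the transcript, blastn 2.17.0) are uncertain. The deposited values were turned back into normalized counts. All were whole multiples of 1 read per library (100% within 0.05), which gave the reads and depths. At MII, log2(normalized count + 1) of every gene with a mean of at least 1 was fitted in limma 3.58.1 (trend, R 4.3.3), two-sided, with Benjamini-Hochberg adjustment over 20388 genes. The fit was also run on simulated data with the same spread setting for every gene and library and no change in low genes. Those data held no deviating library, so they give no assurance for WT replicate 3 or for members at few reads. On the log2(value + 1) scale changes of low genes are understated, except that libraries at 0 can make a difference larger than the ratio of means. Dropping a library re-applied the filter. At GV the authors' deposited values were used. Members and lists were chosen with earlier results of these data known. Named were members called at MII, members listed at GV, the 4 smallest p-values per complex and the isoform sets, and other members were chosen after their values were seen. The values of 1 member are not reported here by name.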

Additional observations from a re-analysis of the deposited data

How the results depend on the processing

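The members called at MII (1 higher, 0 lower) and the genes called in all (106 higher, 202 lower) depended on the fit. A pseudocount of 0.1 called 0 members higher, limma-voom 0 members higher and 80 genes lower, the deposited comparison of the authors called 4 members higher and 3 lower with 738 and 1113 genes, and array weights (0.198 for WT replicate 3, 4.37 for WT replicate 2) 18 members higher and 3 lower with 1297 and 1893 genes. Leaving out 1 library gave 0 to 3 members higher, 0 to 1 lower, 0 to 437 genes higher and 0 to 551 lower, the highest counts without WT replicate 3. Without WT replicate 3 and with genes filtered on all 6 libraries the calls were 2 and 1 members and 266 and 624 genes, and with thinned reads 1 member was lower and 196 genes higher. The replicate numbers shared by the genotypes at MII (2 and 3) did not pair the libraries, with correlations of deviations of 0.013 and -0.101. In a replicate block numbers 1 and 4 held a single genotype each, so the genotype difference rested on numbers 2 and 3 alone. That fit called 0 members and 0 genes in either direction and turned Cox6b2 to -0.44. It had little power to call any gene, so no conclusion is drawn from its 0 calls. At GV the shared numbers (1, 2 and 4) did not pair the libraries either, with correlations of -0.012, 0.016 and 0.0010 over the 3475 selected genes. Taken as a replicate block, a choice made after seeing the data, the mean within-number log2 difference of the 6 GV genes lay between -1.32 (Ndufaf8) and 1.64 (Cox6b2). All 3 pairs of each gene had its sign (exact sign-flip permutation p = 0.25, two-sided, the smallest that 3 pairs allow). The genes were listed for differing in these same libraries, so the shared signs largely follow from that selection. The permutation could not pass, and no conclusion is drawn from it.

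The median over members kept within -0.07 to 0.50 when 1 library was left out. The complex I core median was 0.067 with array weights, -0.59 to 0.036 with 1 library left out and 0.036 without WT replicate 3 under the 6-library filter, and the complex II median was 0.060 with array weights. With 1 library left out the accessory subunit median lay between -0.29 and 0.75, the ATP synthase median between -0.064 and 0.82 and the assembly factor median between -0.90 and -0.25. Reversed were Ndufa12 (0.024 with array weights), Sdhb (-0.31 with array weights, -0.27 to 1.09 with 1 library left out, -0.27 without WT replicate 3 under each filter and with thinned reads) and Cox6b2 (-0.36 to 1.15 over libraries left out). Of the other values of named members, 362 kept their direction and side of the threshold, 20 gained a call and 8 lost one, and the cause was not tested. With 3 tubes a group and 23077585 reads in the shallowest library, members at a few reads carry little information.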
